A study of Homo sapiens with 8 samples.

Results

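The TEAD1 peaks described here are weak sites at which no TEAD4 peak was found. They were chosen by measured values: a deposited TEAD1 score below 397.85, and no base shared with any peak of the TEAD4 list. The rule gave 25550 of the 38186 TEAD1 peaks (66.9%), so this is the bulk of the TEAD1 list. The TEAD4 list was shorter, with 12188 peaks, and its median peak width was 352 bp against 552 bp for TEAD1. A shorter list limits how many TEAD1 peaks can carry TEAD4. The size of the group is therefore no measure of TEAD1-specific binding, which was not tested. The name TEAD1-only below means only that no listed TEAD4 peak shared a base with the site. The threshold lay at the 80th percentile of TEAD1 scores. Of the other TEAD1 peaks, 4999 scored below the threshold and carried TEAD4, 968 scored at or above it without TEAD4, and 6669 scored at or above it with TEAD4. The first of these groups is used below as the comparison, because its TEAD1 scores cover the same range. The TEAD1 score and the absence of TEAD4 are therefore descriptions of how the sites were picked and not results.

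All libraries came from HuCCT1, a human cholangiocarcinoma cell line, by chromatin immunoprecipitation and sequencing (ChIP-seq). The groups used were TEAD1, TEAD4, YAP and TAZ, each precipitated with its own antibody, and HAYAP5SA, a YAP form with an HA tag that was precipitated with an HA antibody. The labels name no treatment, time or genotype beyond these, and do not say which libraries came from cells that carried the tagged protein. The series had 8 libraries with 1 library per group, and peak lists from 5 of them were analysed. With no replicates, no difference below has a replicate check, and no test was made over peaks, which share a library. Intervals in brackets are exact Clopper-Pearson intervals at 95% and cover counting error over peaks only. How deeply each library was sequenced is unknown.

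TEAD1 and TEAD4 belong to a family of paralogous transcription factors that share a DNA-binding TEA domain and recognise the same short element, known as the MCAT motif. YAP and TAZ are coactivators kept out of the nucleus by the Hippo kinases LATS1 and LATS2. In the nucleus they contact DNA largely through TEAD proteins. In YAP5SA the serines that LATS phosphorylates are exchanged for alanine, which makes the protein resistant to this control. YAP and TAZ drive growth programmes in bile duct cells, and TEAD sites in epithelial cancers are mostly known from enhancers.

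The weak TEAD1-only sites crowded towards the floor of the TEAD1 list. Their median score was 132.8 (quartiles 101.2 to 192.1), against 177 for the whole list, on a scale that the authors do not state. Of the 25550 sites, 6095 (23.9%) scored from 80 to 100 and 8977 (35.1%) from 100 to 150. Another 4647 (18.2%) scored from 150 to 200, 4349 (17.0%) from 200 to 300 and 1482 (5.80%) from 300 to the threshold. TEAD4 was rare in the lowest of these 5 score bands, where 97.6% of TEAD1 peaks were weak TEAD1-only sites. In the uppermost band below the threshold the share was 46.2%. The 3 sites nearest below the threshold, leaving out chromosome 8, lay at chr15:63287041-63287768 (score 397.39), chr5:136550026-136550842 (397.52) and chr15:82452175-82452626 (397.52). The 3 TEAD1 peaks without TEAD4 nearest above it lay at chr5:81630470-81631165 (397.85), chr9:4178237-4178943 (398.04) and chr7:103300886-103301325 (398.16). Those values run on without a gap, so the threshold divides a continuous distribution.

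**Figure D1:**
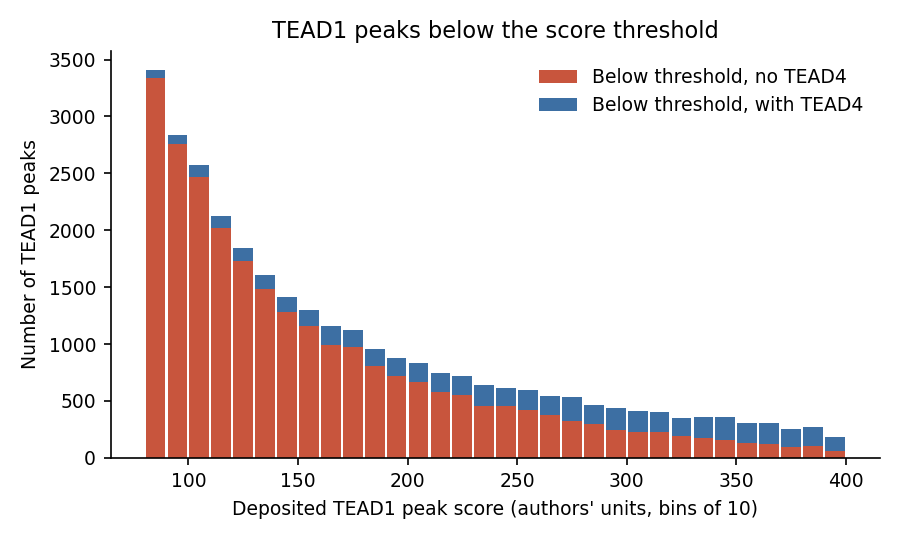
Number of TEAD1 peaks (y axis) in bins of 10 units of the deposited TEAD1 score (x axis) below the threshold, stacked by whether the peak shares a base with a TEAD4 peak. The weak TEAD1-only sites are most numerous at the floor of the list, and make up 97.6% of the peaks between 80 and 100 but 46.2% of those between 300 and the threshold.

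Tagged YAP5SA was found at very few of these sites. An HAYAP5SA peak shared a base with 17 of the 25550 sites (0.0665%, interval 0.0388 to 0.107%), where the background over all TEAD1 peaks was 787 of 38186 (2.06%). Among TEAD1 peaks of the same score range with TEAD4, 34 of 4999 carried HAYAP5SA (0.680%, 0.471 to 0.949%), and the intervals did not overlap. Score differs between these groups, with medians of 132.8 and 258.5, so shares were also compared within score bands. From 300 to the threshold, HAYAP5SA lay at 4 of 1482 weak TEAD1-only sites (0.270%, 0.0736 to 0.690%) and at 20 of 1724 peaks with TEAD4 (1.16%, 0.710 to 1.79%). The intervals did not overlap in that band. From 200 to 300 the counts were 6 of 4349 (0.138%, 0.0507 to 0.300%) and 8 of 1780 (0.449%, 0.194 to 0.884%), with overlapping intervals. From 150 to 200 they were 2 of 4647 (0.0430%, 0.00521 to 0.155%) and 4 of 760 (0.526%, 0.144 to 1.34%), also overlapping. From 100 to 150 they were 1 of 8977 and 0 of 584, and the count of 0 there is compatible with up to 0.514% of peaks. In the lowest band they were 4 of 6095 (0.0656%, 0.0179 to 0.168%) and 2 of 151 (1.32%, 0.161 to 4.70%), again with overlapping intervals. The group with TEAD4 thus had the larger share in 4 of the 5 bands. Weighted to the score bands of the weak TEAD1-only sites, its share was 0.555%, or 8.35 times theirs. The 2 overlaps of the lowest band weigh heavily in it: without that band, left out after the values were seen, the weighted share was 0.315% and the ratio 4.71. The ratio ranged from 3.31 to 15.0 under the alternative settings.

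**Figure D2:**
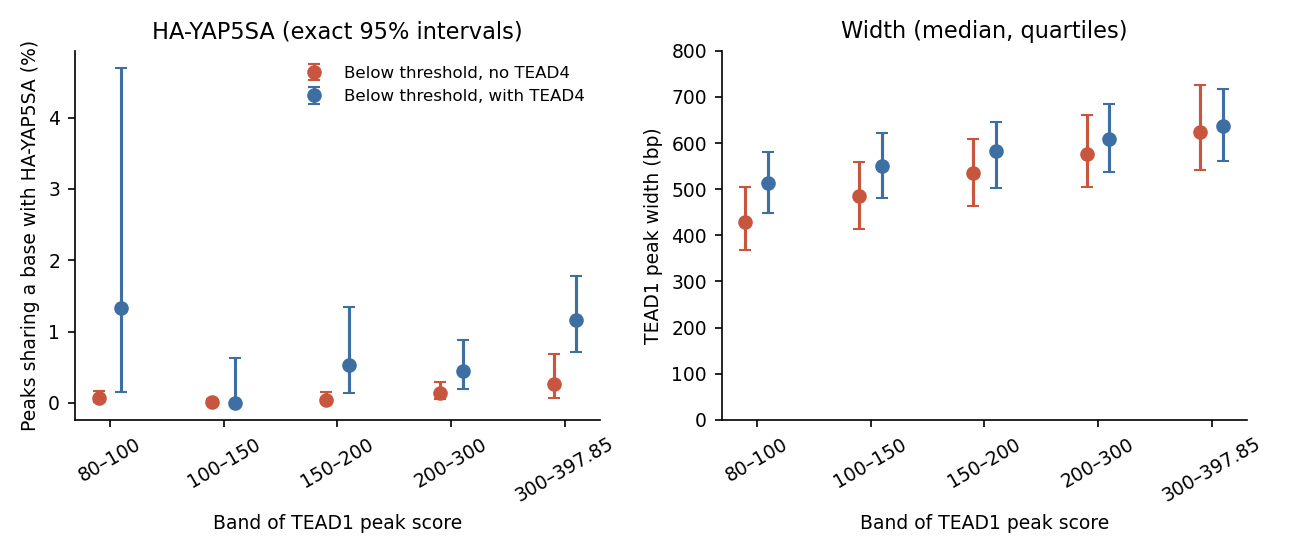
Left, percent of TEAD1 peaks that share a base with an HAYAP5SA peak, with exact 95% intervals; right, median TEAD1 peak width in bp with quartiles; both by band of TEAD1 score, for below-threshold peaks without and with TEAD4. Peaks with TEAD4 carry HAYAP5SA more often in 4 of 5 bands, with intervals that part only from 300 to the threshold, and are wider at the median in every band, by 84 bp in the lowest band and 13 bp in the highest.

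The 17 sites with HAYAP5SA stood on 10 chromosomes, and 4 of them had TEAD1 scores from 80 to 100. In that band the share with HAYAP5SA was 0.0656%, close to the 0.0665% of all weak TEAD1-only sites. The TEAD1 scores of the 17 ran from 82.87 to 391.81 with a median of 225.7, against 132.8 for the 25533 sites without HAYAP5SA. The HAYAP5SA peaks on the 17 were weak within their own list. Their scores ran from 80.25 to 116.9 with a median of 94.4, and 16 of 17 lay below the HAYAP5SA list median of 114.5. The 34 HAYAP5SA peaks on below-threshold TEAD1 peaks with TEAD4 were as low, with a median of 91.5, whereas the 748 on TEAD1 peaks at or above the threshold with TEAD4 had a median of 119.5. The centres of the HAYAP5SA and TEAD1 peaks were a median of 55 bp apart (range 15 to 280.5 bp). None of the 17 overlapped a peak of the YAP antibody. Over all TEAD1 peaks 80 of 38186 (0.21%) did. Of the 729 higher-scoring TEAD1 peaks with TEAD4 and HAYAP5SA, 52 did, so 0 of 17 tells little. Most stood by themselves: 14 of 17 had no other TEAD1 centre within 10 kb. Of all weak TEAD1-only sites, 56.7% stood alone in this way. Among the 17, 1 had only another site of its own kind, and 2 had a peak with TEAD4 nearby.

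The highest HAYAP5SA score among them, 116.9, was at chr11:44863664-44864248, a TEAD1 peak of score 225.65 whose nearest TEAD4 centre was 19934.5 bp away. It was the single one of the 17 above the HAYAP5SA list median. Next came chr1:246868462-246869068, with an HAYAP5SA score of 112.55 and a TEAD1 score of 377.52, and here the nearest TEAD4 centre lay 269659 bp away. The site at chr14:73267719-73268944 had an HAYAP5SA score of 101.87 and, at 1226 bp, was far wider than the median site. The sites at chr11:18334496-18334997 (HAYAP5SA score 100.68), chr14:102018955-102019594 (100.01) and chr18:1015079-1015721 (98.37) followed. At chr7:29937985-29938561 the HAYAP5SA score was 94.99 although the TEAD1 score, 82.87, was the lowest of the 17. The other 3 of the first 10 lay at chr11:67296775-67297417 (HAYAP5SA score 94.5), chr12:110847903-110848442 (94.37) and chr11:10271129-10271460 (89.87). These positions are hg19, and genes at them were not assigned here.

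The distance to TEAD4 varied widely among the 17. The sites at chr2:12172585-12172803 and chr22:41222377-41222752 had TEAD4 peaks only 272 and 246 bp from their edges. Each lay beside a TEAD1 peak with TEAD4 and a score of 533 or 529, at centre distances of 551 and 662.5 bp. By contrast, the site at chr12:28836195-28836640 had no TEAD4 centre within 552602 bp. At chr5:105220833-105221442, with the highest TEAD1 score of the 17, the nearest one was 286440 bp away.

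Many more sites lay beside an HAYAP5SA peak than on one. A further 52 sites had an HAYAP5SA peak within 1 kb of their edge without sharing a base, at a median gap of 657.5 bp (190 to 996 bp). For 51 of these 52, that HAYAP5SA peak lay on a different TEAD1 peak, one at or above the threshold with TEAD4. For the other one it lay on a below-threshold peak with TEAD4. In the whole HAYAP5SA list 748 peaks (88.3%) lay on TEAD1 peaks at or above the threshold with TEAD4. With the looser rule of 1 kb the share rose to 69 of 25550 (0.270%, 0.210 to 0.342%), against 877 of all 38186 TEAD1 peaks (2.3%). It was then 54 of 4999 (1.08%, 0.813 to 1.41%) for the peaks with TEAD4. Within 50 kb of the centre an HAYAP5SA peak was found for 1508 sites (5.90%, 5.62 to 6.20%) and for 447 below-threshold peaks with TEAD4 (8.94%, 8.16 to 9.77%), where the share over all TEAD1 peaks was 8.62%.

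The YAP antibody, with a list of 454 peaks, gave a different and equally small set. YAP peaks shared a base with 14 of the 25550 sites (0.0548%, 0.0300 to 0.0919%), against 80 of 38186 TEAD1 peaks in all (0.21%) and 4 of 4999 below-threshold peaks with TEAD4 (0.0800%, 0.0218 to 0.205%). The last interval contains the share of the weak TEAD1-only sites. None of the 14 carried HAYAP5SA, and neither did the 4 below-threshold peaks with YAP and TEAD4 or the single higher-scoring peak with YAP but no TEAD4. Of the 61 TEAD1 peaks with YAP at or above the threshold with TEAD4, 52 did. The 14 sites were broad. Their TEAD1 widths ran from 619 to 6903 bp and had a median of 993 bp. The median of all weak TEAD1-only sites was 504 bp. Of the 14 sites, 12 were wider than 800 bp. Only 3.84% of the weak TEAD1-only sites were that wide. The 4 below-threshold peaks with YAP and TEAD4 were all wider than 800 bp, with a median of 3529.5 bp, and the single higher-scoring peak without TEAD4 was 1360 bp wide. Without sites wider than 800 bp, a limit chosen after the values were seen, the share with YAP was 0.00814%. The effect of width on the overlap was not tested. Whether these positions lie in repeated sequence was not examined, and no control library was used here. Binding and artefact can therefore not be told apart at the 14 sites.

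Of these 14 sites, 2 lay on chromosome 8. The highest YAP score among the rest, 698.79, was at chr10:42397724-42401497, a TEAD1 peak 3774 bp wide. The site at chr4:68264030-68266878 (2849 bp wide) followed with a YAP score of 520.24, although its TEAD1 score of 80.46 was close to the floor of the list. The site at chr9:67320013-67321000 had a YAP score of 313.12, and chr3:196625301-196625919, the narrowest of the 14 and the one with the highest TEAD1 score (257.46), had a YAP score of 229.34. Next were chrY:13842399-13843112 (YAP score 191.95), chr21:11186025-11186928 (177.59), chr9:72652860-72653857 (177.24) and chr11:51579193-51581188 (158.13). Lower in the YAP list stood a pair of sites on chromosome 22, at 18883615 to 18884578 and 18879867 to 18880727, whose centres were 3799.5 bp apart. The widest of all weak TEAD1-only sites outside chromosome 8, chr1:121351461-121358363 (6903 bp), was also among the 14, with a YAP score of 123.02.

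TAZ was found at no site. The TAZ list held only 153 peaks. None of the 25550 weak TEAD1-only sites shared a base with one, and none of the other TEAD1 peaks did (0%). The count of 0 is thus not particular to these sites. Its limit, 0.0117% of sites, covers counting error only and is no limit on TAZ binding. The smallest distance between a site and a TAZ peak was 1865 bp, and 29 sites (0.114%, 0.0760 to 0.163%) had a TAZ centre within 50 kb, close to the 39 of all 38186 TEAD1 peaks (0.102%).

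Weak TEAD1-only sites were narrow even for their score. Their median width was 504 bp (quartiles 421 to 587 bp), against 605 bp (526 to 682 bp) for below-threshold peaks with TEAD4. Width rose with score in both groups. From 80 to 100 the medians were 429 bp and 513 bp, from 100 to 150 they were 486 and 551 bp, and from 150 to 200 they were 536 and 582.5 bp. From 200 to 300 they were 577 and 609.5 bp, and from 300 to the threshold 624 and 637 bp. The quartile ranges overlapped in every band. The part of the overlap rule in this gap was not tested. When a peak counted as TEAD4-bearing only with a TEAD4 centre within 500 bp, the medians in the lowest band were 429 and 507.5 bp and in the highest 624 and 637 bp. The narrowest site, at chr2:206170809-206170974, was 166 bp wide with a score of 180.15.

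The sites lay farther from other TEAD1 peaks than below-threshold peaks with TEAD4 did. The difference from the whole TEAD1 list was small. A second TEAD1 centre lay within 10 kb of 11055 sites (43.3%, 42.7 to 43.9%), where the share over all TEAD1 peaks was 46.3%, and of 2527 below-threshold peaks with TEAD4 (50.6%, 49.2 to 51.9%). The order was the same in all 5 score bands: 41.5 and 49.0% from 80 to 100, 42.4 and 50.5% from 100 to 150, and 44.7 and 47.4% from 150 to 200. It was 45.3 and 52.2% from 200 to 300 and 45.2 and 50.4% from 300 to the threshold. The intervals overlapped in the lowest band and from 150 to 200 and were apart in the other 3 bands. The median distance to the nearest TEAD1 centre was 13094.5 bp for weak TEAD1-only sites, 9831 bp for below-threshold peaks with TEAD4, 10408 bp for higher-scoring peaks without TEAD4 and 8456 bp for higher-scoring peaks with it. Within 50 kb, a weak TEAD1-only site had 2.65 other TEAD1 peaks on average and a below-threshold peak with TEAD4 had 3.07. No other TEAD1 peak lay within 50 kb of 18.3% of the sites and of 12.9% of below-threshold peaks with TEAD4. Another TEAD1 centre was within 50 kb of 81.7% of the sites, close to the 83.8% of all TEAD1 peaks. The most remote site, chr13:58199049-58199436, had its nearest TEAD1 centre 1422665.5 bp away.

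**Figure D3:**
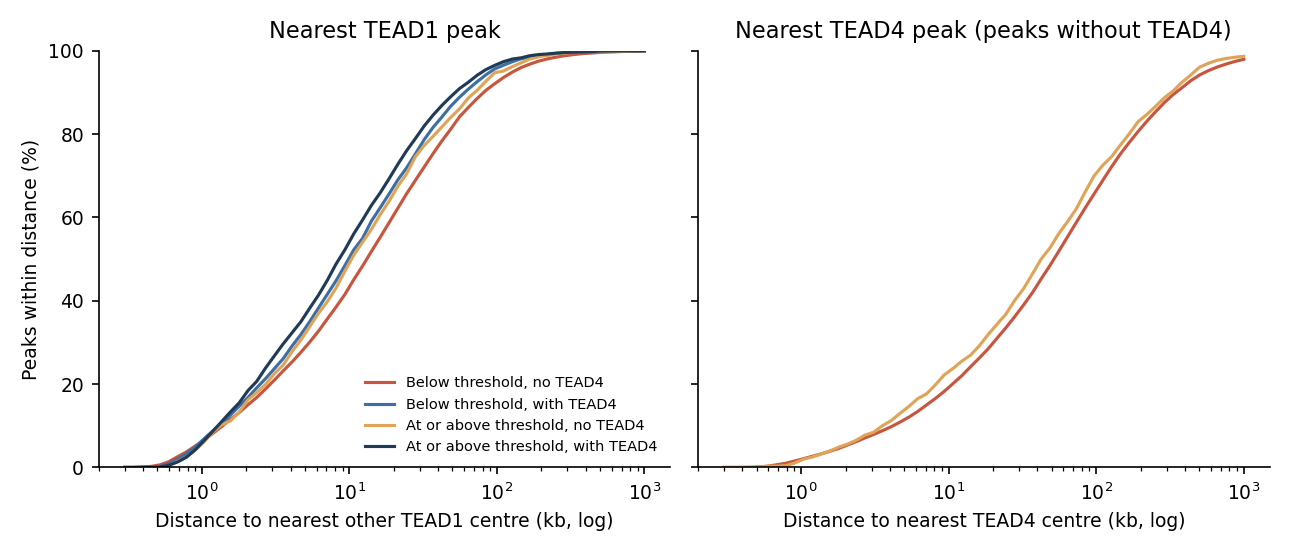
Cumulative percent of TEAD1 peaks (y axis) by distance in kb on a log axis to the nearest other TEAD1 centre (left, 4 classes of TEAD1 peak) and to the nearest TEAD4 centre (right, the 2 classes without TEAD4). The curve of the below-threshold peaks without TEAD4 lies lowest beyond a few kb, and reaches 43.3% at 10 kb on the left, against 50.6% for below-threshold peaks with TEAD4.

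TEAD4 was also looked for at the neighbours of the weak TEAD1-only sites. Where the nearest TEAD1 centre was within 10 kb, it belonged to a peak with TEAD4 for 3631 of 11055 sites (32.8%, 32.0 to 33.7%). For below-threshold peaks that carried TEAD4 themselves, the nearest peak had TEAD4 in 958 of 2527 cases (37.9%, 36.0 to 39.8%). In the whole list 30.6% of TEAD1 peaks had TEAD4. The share was lower for the weak TEAD1-only sites in each of the 5 score bands, with values of 31.3 to 33.4%, against 35.2 to 39.6% for the peaks with TEAD4. Within bands the intervals were apart only from 200 to 300, at 31.3 to 35.5% and 36.5 to 42.8%, and overlapped in the other 4.

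TEAD4 lay at a wide range of distances, under a rule that had already left out every site touching a TEAD4 peak. The nearest TEAD4 centre lay a median of 51548 bp from a weak TEAD1-only site (quartiles 14852 to 144218 bp), and 9 sites had no TEAD4 peak on their scaffold. A TEAD4 centre was within 5 kb of 2939 sites (11.5%, 11.1 to 11.9%), within 10 kb of 4903 (19.2%, 18.7 to 19.7%) and within 50 kb of 12567 (49.2%, 48.6 to 49.8%). Over all TEAD1 peaks, which include those that carry TEAD4, these shares were 38.6, 44.0 and 64.8%. Higher-scoring TEAD1 peaks without TEAD4 had a median distance of 42191.8 bp. Their shares within 5, 10 and 50 kb were 13.7, 23.1 and 53.3%. Near misses were few: 913 sites (3.57%, 3.35 to 3.81%) had a TEAD4 peak within 1 kb of their edge, and 34 within 100 bp. The share within 1 kb was close among higher-scoring peaks without TEAD4, at 37 of 968 (3.82%, 2.71 to 5.23%). The TEAD4 peak lay on a different TEAD1 peak for 890 of the 913 and on none for the other 23. The smallest gap was 12 bp, so no site depends on the uncertainty of 1 bp in peak starts.

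The sites fell into those standing alone, those in runs of their own kind and those beside TEAD4-bearing peaks. TEAD1 peaks were joined into runs when neighbouring centres were at most 10 kb apart. Of the 25550 sites, 14495 (56.7%, 56.1 to 57.3%) stood alone and 5436 (21.3%, 20.8 to 21.8%) were in 2444 runs made up only of weak TEAD1-only sites. A further 5318 (20.8%, 20.3 to 21.3%) were in runs with at least 1 TEAD4-bearing TEAD1 peak, and 301 (1.18%) shared a run with a higher-scoring TEAD1 peak but no TEAD4. Standing alone was common in every class. It held for 49.4% of below-threshold peaks with TEAD4, 51.0% of higher-scoring peaks without TEAD4 and 45.9% of those with it. Over all TEAD1 peaks, 46.3% had another TEAD1 centre within 10 kb and so did not stand alone. Scores hardly varied between these settings, with medians of 130.9 alone, 135.2 in runs of their own kind and 135.8 in runs with TEAD4. Median widths were 493, 507 and 530 bp. Of the sites in runs with TEAD4, 542 (10.2%, 9.39 to 11.0%) were in a run with HAYAP5SA. In runs of weak TEAD1-only sites this was so for 2 of 5436 (0.0368%, 0.00446 to 0.133%), which belong to a single run on chromosome 7. Such runs leave out TEAD4-bearing peaks by definition, so this difference is a description only. In runs with TEAD4 the share was 6.41% for below-threshold peaks with TEAD4. It was 9.09% for higher-scoring peaks without TEAD4 and 18.3% for those with it.

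The runs with most sites, counting only the sites themselves and leaving out chromosome 8, were on chromosomes 14, 10 and 4. At chr14:50428161-50454507, 9 sites with scores of 104 to 296 lay within 26.3 kb, together with 1 below-threshold peak with TEAD4. At chr10:116383588-116415490, 9 sites with scores of 99.75 to 338 lay within 31.9 kb, together with 1 higher-scoring TEAD1 peak without TEAD4. At chr4:169526614-169554428, 8 sites with scores of 81.84 to 320 lay within 27.8 kb, together with 1 higher-scoring TEAD1 peak with TEAD4. None of these 3 runs held an HAYAP5SA peak.

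Some sites flanked strong TEAD sites, both those with and those without YAP5SA. The nearest higher-scoring TEAD1 peak with TEAD4 was within 1 kb of 273 weak TEAD1-only sites (1.07%), 1 to 2 kb from 530 (2.07%) and 2 to 5 kb from 1006 (3.94%). It was over 200 kb from 8290 (32.4%), and its median distance was 97661.5 bp. These distances are given for the weak TEAD1-only sites alone. Where the nearest TEAD1 centre was within 2 kb, it was a strong site with TEAD4 for 19.9% of weak TEAD1-only sites. The share was 22.2% for below-threshold peaks with TEAD4, 25.8% for higher-scoring peaks without TEAD4 and 19.0% for those with it. Flanking a strong site was thus not particular to these sites. The median score of the sites was 126.6 within 1 kb, 146.4 at 1 to 2 kb and 131.1 beyond 200 kb, with overlapping quartiles. Seen from the strong sites, 299 of the 729 with HAYAP5SA (41.0%, 37.4 to 44.7%) and 2287 of the 5940 without (38.5%, 37.3 to 39.8%) had a weak TEAD1-only site within 10 kb. The intervals overlapped. Strong sites with HAYAP5SA had higher TEAD1 scores, at a median of 1222 against 638, so all strong sites together were split into 3 equal groups of score. Those with HAYAP5SA were unevenly spread over them, with 49 in the lower, 111 in the middle and 569 in the upper group. The shares with and without HAYAP5SA were 26.5% (14.9 to 41.1%) and 37.1% (35.0 to 39.1%) in the lower group, 37.8% (28.8 to 47.5%) and 39.5% (37.4 to 41.7%) in the middle group, and 42.9% (38.8 to 47.1%) and 39.1% (36.7 to 41.5%) in the upper group. All 3 pairs of intervals overlapped, which does not show that the shares are equal. With a distance of 50 kb the shares were 80.9% (77.9 to 83.7%) with HAYAP5SA and 80.2% (79.2 to 81.2%) without. In the lower score group they were 63.3% (48.3 to 76.6%) and 79.1% (77.3 to 80.8%), with intervals apart, and in the middle and upper groups the intervals overlapped. With 2 kb they were 11.0% (8.80 to 13.5%) and 11.8% (11.0 to 12.6%), and the intervals overlapped in all 3 score groups.

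**Figure D4:**
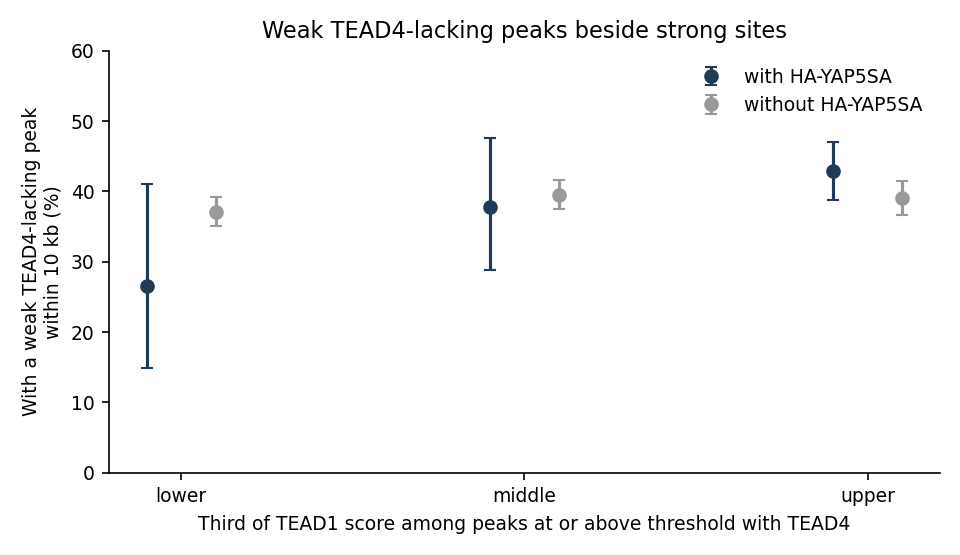
Percent of higher-scoring TEAD1 peaks with TEAD4 that have a weak TEAD1-only site within 10 kb (y axis, exact 95% intervals), by score group (x axis) and by whether the strong peak carries HAYAP5SA. The intervals with and without HAYAP5SA overlap in each group, and the widest, 14.9 to 41.1%, belongs to the 49 strong peaks of the lower group with HAYAP5SA.

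The share of weak TEAD1 peaks without TEAD4 differed between chromosomes. Of the 25550 sites, 25516 lay on 24 placed chromosomes and 34 on scaffolds. Taken over TEAD1 peaks below the threshold, 83.6% lacked TEAD4 in the whole list. The share was lowest on chromosome 17 (833 of 1114, 74.8%, 72.1 to 77.3%), followed by chromosome 20 (76.4%, 73.2 to 79.4%) and chromosome 19 (76.8%, 73.2 to 80.1%). It was highest on chromosome 18 (493 of 553, 89.2%, 86.3 to 91.6%), chromosome Y (121 of 136, 89.0%, 82.5 to 93.7%) and chromosome 13 (578 of 652, 88.7%, 86.0 to 91.0%). Chromosome 4 (88.0%, 86.4 to 89.5%) and chromosome X (87.9%, 85.5 to 90.0%) came next. These chromosomes were picked by the share itself, so their order is a description and no difference between chromosomes was tested. The TEAD1 score moved with this order to some extent, with median scores over all TEAD1 peaks of 199 on chromosome 17 and 192 on chromosome 20 but 170.2 on chromosome 19 and 165.0 on chromosome 18. Weighted to the score bands of the whole list, the share still ran from 76.0% on chromosome 17 to 87.9% on chromosome 18 and 91.1% on chromosome Y. The part of the score in this order was not tested beyond this weighting.

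**Figure D5:**
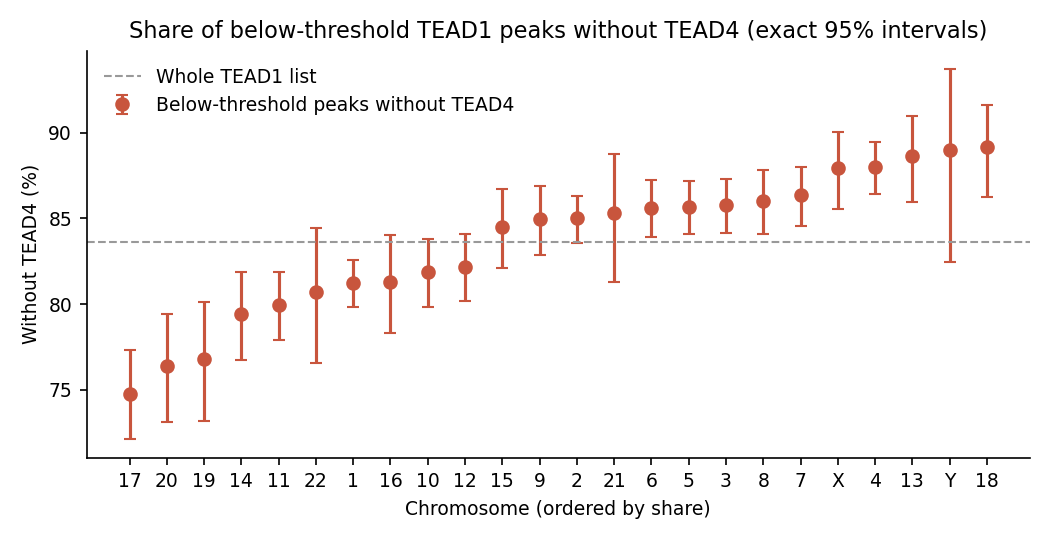
Percent of below-threshold TEAD1 peaks that share no base with a TEAD4 peak (y axis, exact 95% intervals) on each placed chromosome (x axis, ordered by the share), with a dashed line at 83.6% for the whole list. Chromosomes 17, 20 and 19 lie lowest, at 74.8 to 76.8%, and chromosome 18 lies highest at 89.2%.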

How the data were processed

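Bowtie2 and the build hg19 are named, with no further detail, per the submitters' processing notes. Peak names begin with MACS, per the file headers and rows. Which version, cutoff and control library were used to call peaks is not stated in the labels or files. The deposited score of each peak is the authors' own value on an unstated scale, and was used only to rank or group peaks within the TEAD1 list and to describe the HAYAP5SA and YAP lists. Starts were taken as counted from 1 in the lists with named columns and from 0 in the others, which were raised by 1. Peaks sharing at least 1 bp were counted as overlapping, and distances run between centres unless an edge is named. The threshold was read from the rule for the sites.

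Score bands began at 80, 100, 150, 200 and 300. Runs joined centres at most 10 kb apart. Intervals are exact at 95%, and the limit for a count of 0 is 3 peaks. The overlap and distance code was tested on planted peaks. The tools were SciPy 1.17.1, pandas 2.3.3 and NumPy 2.4.6 under Python 3.11.15, with matplotlib 3.10.9 for figures.

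The sites, bands and comparisons were chosen with earlier results of these data known. Regions named are the 10 sites with the highest HAYAP5SA score, up to 10 of those with YAP, the sites beside the threshold, the widest, narrowest and most remote site and the 3 runs with most sites, and chromosome 8 was counted but not named. Other sites were named after their values were seen. The groups of strong sites, the neighbours within 1 kb and the width limit of 800 bp were also chosen afterwards. Planned work on motifs, promoters and gene lists needed an hg19 sequence or annotation and was not run. The libraries titled GFP, IgG and Input were not used here.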

Additional observations from a re-analysis of the deposited data

How the results depend on the processing

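Of 65 recomputed values, 49 stayed within counting error, or within 1.5 times for the number of sites. The 49 include the shares with TAZ, which could only be 0. No TEAD1 peak in the whole list had a TAZ peak within 1 kb, so these values say nothing about stability. The number of sites changed from 25550 to 14969 with scores of at least 120. The share with HAYAP5SA was 0.0355% with a score threshold of 200 and 0.270% with peaks within 1 kb. Among below-threshold peaks with TEAD4 it was 0.427% with a threshold of 300, 0.401% with 200 and 1.08% within 1 kb, so it stayed above that of the weak TEAD1-only sites under each setting run. The share with YAP was 0.00814% without sites wider than 800 bp, an alternative chosen after seeing the data. The median width was 497 bp and 480 bp with thresholds of 300 and 200, and 545 bp with scores of at least 120. The share with a TEAD1 neighbour was 41.2% where no TEAD4 peak lay within 1 kb and 44.6% with scores of at least 120, and 28.7% and 66.3% with distances of 5 and 25 kb in place of 10 kb. The median distance to TEAD4 was 55528.8 bp where no TEAD4 peak lay within 1 kb and 49686.5 bp with scores of at least 120. Apart from changes that follow from the sites or distances left out, the cause was not tested. No paired analysis was possible because each group has 1 library. The alternatives for motifs, promoters and gene lists were not run, as no hg19 sequence or annotation was used here. The lists give no depth, so weak binding and absent binding of TEAD4 cannot be told apart at these sites.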

Other observations

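Of the 847 HAYAP5SA peaks, the 17 on weak TEAD1-only sites were 2.01%, although these sites made up 66.9% of the TEAD1 list, and 41 HAYAP5SA peaks (4.84%) lay on no TEAD1 peak. The 17 had a median width of 151 bp, close to the 148.5 bp of those on below-threshold TEAD1 peaks with TEAD4 and the 146 bp of those on no TEAD1 peak, and below the 233 bp of those on higher-scoring TEAD1 peaks with TEAD4. The median distance from a weak TEAD1-only site to the nearest HAYAP5SA centre was 1120305 bp, against 818628 bp for below-threshold peaks with TEAD4.

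Of the weak TEAD1-only sites, 1220 (4.77%) had as their nearest TEAD1 neighbour a TEAD4-bearing peak within 2 kb. That neighbour had the higher TEAD1 score in 1130 of these 1220 pairs and its median score was 490.4. For the other 24330 sites the nearest TEAD1 peak of any kind scored higher in 15151 cases, with a median of 169. The sites were picked for low TEAD1 scores, so both counts describe the rule and are not results. The 1220 sites held 46 of the 52 that lay within 1 kb of an HAYAP5SA peak without touching it, but 2 of the 17 that shared a base with one. Their median width was 529 bp and that of the other sites 502 bp. Whether such flanking peaks are separate binding sites or parts of a broad signal was not tested.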
